A study of Mus musculus with 10 samples.

Results

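The 9 genes described here code for core parts of the Sonic hedgehog pathway in the mouse: the ligand Shh, the receptors and binders Ptch1, Hhip, Gas1 and Boc, the transducer Smo, and the transcription factors Gli1, Gli2 and Gli3. They were chosen by symbol, and all 9 had a row among the 14796 named genes of the deposited table. RNA was sequenced from the telencephalon, the part of the embryonic forebrain that forms cortex and basal ganglia, at embryonic day 12 in 10 samples. Of these, 2 carried a null allele of Polr1a and were set against 2 wild types whose titles share their first number (the null set), while 3 carried the p.C1559F missense allele and were set against 3 wild types whose titles share another (the missense set). Polr1a codes for the largest subunit of RNA polymerase I, which transcribes ribosomal RNA genes. The labels used here state neither zygosity, strain or litter nor what the title numbers mean, so the p-values measure only the spread between these samples, which may be technical.

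Hedgehog ligands bind Ptch1 and thereby release Smo from inhibition. Active Smo then works through the primary cilium to turn Gli2 and Gli3 from repressors into activators of transcription. Gli1, Ptch1 and Hhip are themselves transcribed in response to the signal, so their RNA is widely used as a readout of pathway activity. In the forebrain, Shh from ventral sources induces the medial ganglionic eminence, and Gli3 repressor protects dorsal cortex and the cortical hem.

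All values are log2 levels scaled to each sample's total, and 1 unit is a doubling. They are signals from whole tissue, where fewer cells of a type and less RNA per cell cannot be told apart. The sequencing depth is unknown, since every sample sums to between 1000450 and 1000890 on the linear scale. Polr1a RNA was 4.99 and 4.82 in the null samples, against 5.38 and 5.38 in their wild types, a log2 change of -0.48 (limma adjusted p = 0.563). It was 5.09, 5.66 and 5.79 in the missense samples, against 5.62, 5.51 and 5.64 in their wild types (log2 change -0.08, adjusted p = 0.964). A missense allele need not alter the level of its RNA, so the second comparison does not check that label. Emx1, a gene of the cortical part of the telencephalon, was present in every sample. Its level was 5.59 and 5.64 in the null samples, against 5.62 and 5.79 in their wild types (log2 change -0.09, adjusted p = 0.922). In the missense samples it was 5.85, 5.45 and 5.74, against 5.90, 5.84 and 5.76 in their wild types (log2 change -0.16, adjusted p = 0.922), and the groups overlapped in both comparisons. Emx1 is 1 of 9 listed telencephalon markers, and others moved more. Over all 9, log2 changes ran from -1.16 to 0.22 in null, with 4 higher and 5 lower. In missense they ran from -0.75 to 0.08, with 2 higher and 7 lower. None of the 9 had a limma adjusted p under 0.05 in either mutant.

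Promoters of 6 of the 9 genes (Gli2, Smo, Hhip, Gli3, Gas1 and Ptch1) were matched by symbol in RefSeq sequence of build GRCm38.p6. The 250 bases upstream of the start are shown for Ptch1, the classical target gene, and for Gli2, the only one of the 6 with a match to the core of the Gli binding motif. Capitals mark that match, which begins 205 bases upstream of the start, and the Ptch1 window has none. The Ptch1 window lies at chr13:63565736-63565985 and the Gli2 window at chr1:119053620-119053869, both on the minus strand and written 5′ to 3′.
Ptch1: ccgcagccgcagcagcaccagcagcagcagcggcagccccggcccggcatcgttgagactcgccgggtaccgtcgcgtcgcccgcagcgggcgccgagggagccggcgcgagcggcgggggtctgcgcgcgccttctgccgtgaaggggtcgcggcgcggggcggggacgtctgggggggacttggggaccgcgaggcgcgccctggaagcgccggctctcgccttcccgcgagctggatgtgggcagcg
Gli2: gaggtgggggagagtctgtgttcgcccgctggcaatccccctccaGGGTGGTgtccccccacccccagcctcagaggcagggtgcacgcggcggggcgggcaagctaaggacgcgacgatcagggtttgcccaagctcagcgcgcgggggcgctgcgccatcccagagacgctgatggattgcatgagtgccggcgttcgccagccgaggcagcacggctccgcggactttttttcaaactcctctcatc

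The full Gli motif GACCACCCA, searched on both strands, occurred in 0 of these 6 windows and in 0.225% of 32851 mouse promoter windows of the same length. Its core ACCACCC, which lies inside the full motif and reads GGGTGGT on the other strand, occurred in 1 of the 6 and in 3.92% of all windows. The 6 windows were rich in G and C, between 58.8% (Gas1) and 78.4% (Ptch1), where the median of all windows was 52.4%. For Gas1, unlike the others, bases just past the start were not found in a GENCODE M21 transcript of the gene. The place of its window is therefore less sure. A match of letters is a description, and the absence of one in these windows says nothing about binding elsewhere.

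No hedgehog gene passed the test in either mutant. At a limma p adjusted over all genes of under 0.05, 0 of 9 were called in null, against 0.162% of all genes, and 0 of 9 in missense, against 0.0203% of all genes. At an unadjusted p under 0.05 the counts were 0 of 9 in null, against 8.32% of all genes, and 1 of 9 in missense (Gli1), against 5.54% of all genes. The median log2 change over the 9 genes was 0.07 in null, where all genes had a median of 0.03, and 0.12 in missense, where all genes had 0.02. The count of 0 held in all 19 alternative fits of each comparison. With so small a share of all genes called, 0 is the usual count for 9 genes, so its persistence says little about the hedgehog genes.

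**Figure D1:**
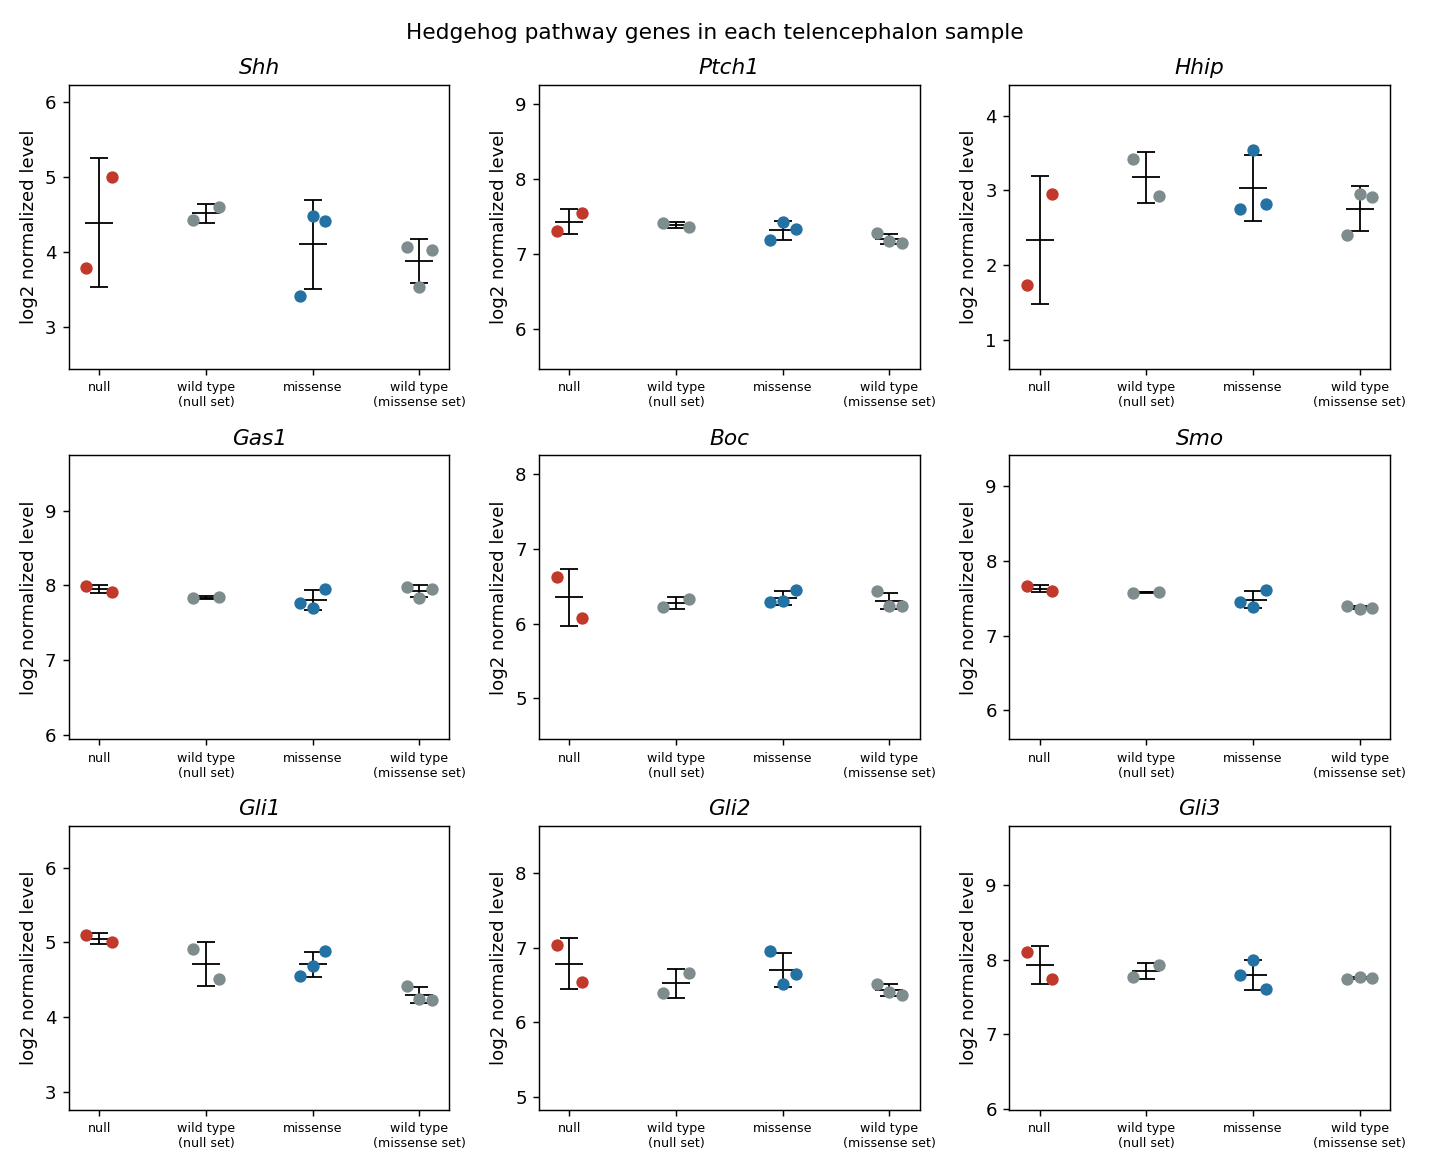
Log2 normalized level (vertical axis, the same span of 3.8 units in each panel) of the 9 hedgehog genes in every sample, by group; points are samples and bars are the mean with SD. Gli1 is the gene whose mutant samples all lie above the wild types of their own set in both comparisons, and the null samples lie far apart for Shh and Hhip.

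The ligand gene Shh, made in the embryonic forebrain by ventral cells, differed more between samples of one genotype than between genotypes. Its level was 3.78 and 5.0 in the null samples, against 4.43 and 4.60 in their wild types. The null samples thus lay on either side of both wild types. The log2 change was -0.12 (95% interval -1.05 to 0.80, limma adjusted p = 0.972), and without null 1 it was 0.49. In the missense samples Shh was 3.41, 4.48 and 4.41, against 4.06, 3.53 and 4.03 in their wild types. Missense 1 was the lowest of these 6 samples and the other two missense samples were the highest. The log2 change was 0.23 (95% interval -0.53 to 0.98, adjusted p = 0.960). These intervals allow fold changes between 0.483 and 1.74 in null and between 0.693 and 1.98 in missense.

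Ptch1, the receptor that holds Smo inactive and is a target of the pathway, varied little. Its level was 7.31 and 7.55 in the null samples, against 7.42 and 7.35 in their wild types. The null samples were the lowest and the highest of these 4, and the log2 change was 0.04 (95% interval -0.21 to 0.30, adjusted p = 0.958). In the missense samples Ptch1 was 7.19, 7.43 and 7.33, against 7.28, 7.17 and 7.15 in their wild types, with a log2 change of 0.12 (95% interval -0.09 to 0.32, adjusted p = 0.929). The groups overlapped in both comparisons, and the fold change of Ptch1 was bounded between 0.866 and 1.23 in null and between 0.940 and 1.25 in missense.

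Hhip, a membrane protein that binds hedgehog ligands and is induced by them, had the largest log2 change of the 9 genes in null. Its level was 1.73 and 2.95 in the null samples, against 3.42 and 2.93 in their wild types. Null 1 was the low sample, and null 2 lay between the wild types. The log2 change was -0.83 (95% interval -1.78 to 0.11, unadjusted p = 0.0785, limma adjusted p = 0.668). It was -0.23 without null 1 and -1.44 without null 2. In the missense samples Hhip was 2.75, 3.54 and 2.82, against 2.41, 2.95 and 2.91 in their wild types, a log2 change of 0.28 (adjusted p = 0.956), and the groups overlapped. The null effect minus the missense effect was -1.11 (95% interval -2.33 to 0.11, unadjusted p = 0.0702, adjusted p = 1).

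The co-receptors Gas1 and Boc, which present ligand to Ptch1, lay close to wild type. Gas1 was 7.99 and 7.92 in the null samples, both above their wild types at 7.83 and 7.85, a log2 change of 0.12 (SE 0.10, adjusted p = 0.831). In missense it was 7.76, 7.70 and 7.96, against 7.98, 7.84 and 7.96 in wild type, and the groups overlapped with a log2 change of -0.12 (SE 0.08, adjusted p = 0.916). Boc was 6.62 and 6.08 in the null samples, outside the wild types at 6.22 and 6.33 on either side (log2 change 0.08, adjusted p = 0.943). In missense it was 6.28, 6.30 and 6.45, within or just above the wild types at 6.43, 6.23 and 6.24 (log2 change 0.04, adjusted p = 0.974).

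Smo, the transducer that Ptch1 restrains, was the steadiest of the 9 genes. Its SD within groups was 0.07, lower than in all but 3.20% of genes, where Shh (0.52) stood at the 82.7th percentile and Hhip (0.49) at the 80.7th. Smo was 7.66 and 7.60 in the null samples, against 7.58 and 7.59 in their wild types, so that both null samples lay above by a narrow margin. The log2 change was 0.05 (SE 0.09, adjusted p = 0.934). In missense it was 7.45, 7.38 and 7.61, against 7.40, 7.36 and 7.36 in wild type, a log2 change of 0.11 (SE 0.08, adjusted p = 0.919) with overlapping groups. The fold change of Smo was bounded between 0.895 and 1.20 in null and between 0.956 and 1.21 in missense.

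Gli1, a transcriptional activator whose own transcription follows the signal, was the one of the 9 genes with all mutants above wild type in both sets. Its level was 5.10 and 5.0 in the null samples, against 4.91 and 4.50 in their wild types, a log2 change of 0.34 (95% interval -0.07 to 0.75, adjusted p = 0.692). In missense it was 4.54, 4.69 and 4.88, against 4.42, 4.24 and 4.23 in wild type, a log2 change of 0.41 (95% interval 0.08 to 0.74, unadjusted p = 0.0206, adjusted p = 0.884). All 5 mutant samples lay above the wild types of their own set, which 2.47% of all genes did. The mean of both effects was 0.37, or 1.30-fold (95% interval 1.08 to 1.55, unadjusted p = 0.00945), and missed the threshold over all genes (adjusted p = 0.287). For that mean 0.27% of all genes passed, and 2 of 9 hedgehog genes (Gli1 and Gli2) had an unadjusted p under 0.05, against 10.7% of all genes. The adjusted p of Gli1 for that mean ran from 0.203 to 0.550 over 18 alternatives. With the wild types of both sets pooled, the null change was 0.59 (unadjusted p = 0.00798, adjusted p = 0.256) and the missense change 0.24 (unadjusted p = 0.159). The null change was 0.55 without wild type 1 of the null set (unadjusted p = 0.0244) and 0.14 without wild type 2 (unadjusted p = 0.523). In these and all fits below that leave a single null or wild-type sample in the null set, that sample is assumed to vary like the other groups.

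Gli2, the main activator of the pathway, was 7.03 and 6.54 in the null samples, against 6.39 and 6.66 in their wild types. Null 1 was the highest and null 2 lay between the wild types, and the log2 change was 0.26 (SE 0.18, adjusted p = 0.775). In missense Gli2 was 6.96, 6.52 and 6.64, against 6.51, 6.41 and 6.36 in wild type. The missense samples lay above all wild types of their set, missense 2 by a narrow margin, with a log2 change of 0.28 (SE 0.15, unadjusted p = 0.0873, adjusted p = 0.902). The mean of both Gli2 effects was 0.27 (unadjusted p = 0.0423, adjusted p = 0.445), and its unadjusted p was under 0.05 in 10 of 18 alternatives. Without null 1 the null change was 0.02 and the mean of both 0.15 (unadjusted p = 0.229), and without null 2 the null change was 0.50.

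Gli3, mainly a repressor and the Gli protein that dorsal telencephalon depends on, did not separate by genotype. Its level was 8.11 and 7.74 in the null samples, on either side of the wild types at 7.77 and 7.93, with a log2 change of 0.07 (95% interval -0.24 to 0.39, adjusted p = 0.931). In missense it was 7.79, 8.0 and 7.60, against 7.74, 7.77 and 7.76 in wild type. The missense samples again spread to both sides of closely grouped wild types, and the log2 change was 0.04 (95% interval -0.22 to 0.30, adjusted p = 0.969). Mutant samples lay above all wild types of their set, with groups that do not overlap, for 3 of 9 hedgehog genes in null (Smo, Gli1 and Gas1), against 22.9% of all genes, and for 2 of 9 in missense (Gli1 and Gli2), against 6.02%. For 0 of 9 did mutants lie below, against 14.8% of all genes in null and 4.89% in missense.

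**Figure D2:**
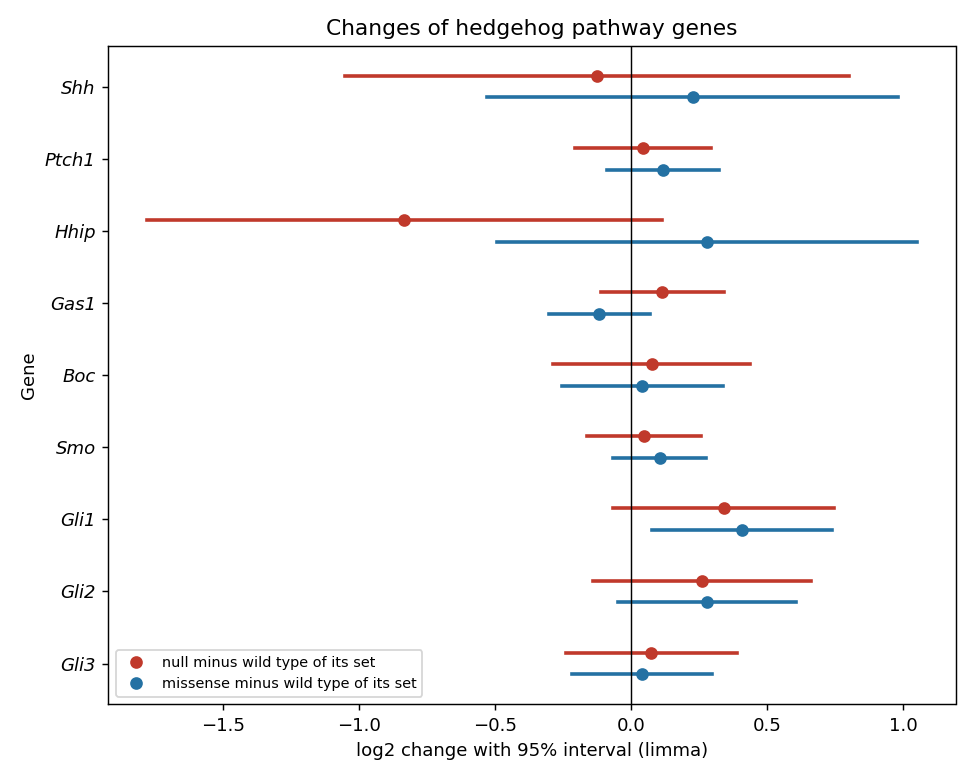
Log2 change with its 95% interval (horizontal axis) of each hedgehog gene in null and in missense samples, each minus the wild types of its own set, from the limma fit. The intervals of Smo, Gas1 and Ptch1 are the narrow ones, those of Shh and Hhip are wide, and the missense interval of Gli1 (0.08 to 0.74) is the one that leaves out 0.

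The test of the difference between the mutants' effects gave 0 of 9 hedgehog genes at an adjusted p of 0.05, against 0.0135% of all genes, and 0 of 9 at an unadjusted p under 0.05, against 4.13%. The log2 differences ran from -1.11 for Hhip to 0.23 for Gas1, and that of Shh was -0.35 (95% interval -1.55 to 0.84).

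Wild types of the missense set had lower levels than wild types of the null set for 7 of the 9 genes. The wild types did not overlap, with the missense set below, for 5 of 9 (Shh, Ptch1, Smo, Gli1 and Gli3), against 9.76% of all genes. The log2 differences were -0.41 for Gli1 (SE 0.17, unadjusted p = 0.0326, adjusted p = 0.636), -0.21 for Smo (SE 0.09, unadjusted p = 0.0364, adjusted p = 0.652) and -0.64 for Shh (SE 0.38, adjusted p = 0.768). In limma 0 of 9 passed, against 0.0946% of all genes, and 2 of 9 had an unadjusted p under 0.05, against 7.37%. Leaving out wild type 1 of the null set moved the Gli1 difference to -0.21 (unadjusted p = 0.314), and leaving out wild type 2 moved it to -0.62 (unadjusted p = 0.00955). What the title numbers mark was not tested.

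Per kilobase of merged exons (GENCODE M21, an annotation other than the authors' build), levels were ordered between genes. This assumes that reads come from the whole merged length of each gene, which was not checked. Over the 5 wild types the order by mean was Gas1 (80.2 ± 4.06, SD, normalized level per kilobase), Smo (31.4 ± 2.51), Gli3 (23.2 ± 1.25), Boc (17.6 ± 1.13), Gli2 (12.9 ± 1.15), Ptch1 (10.9 ± 0.889), Shh (6.35 ± 1.74), Gli1 (4.48 ± 0.930) and Hhip (0.857 ± 0.211). Neighbours whose wild-type ranges overlap were Gli2 (11.95 to 14.7) with Ptch1 (9.98 to 12.1), and Shh (4.07 to 8.54) with Gli1 (3.77 to 6.04). The ranges of the other neighbours did not overlap. The ligand was thus at a lower level per length than its co-receptors, Smo and Gli3, and Gli3 was above Gli1. Some places depend on the length used: before scaling, Ptch1 was above Gli2 in the wild types (142 to 171 against 82.1 to 101 on the linear scale).

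**Figure D3:**
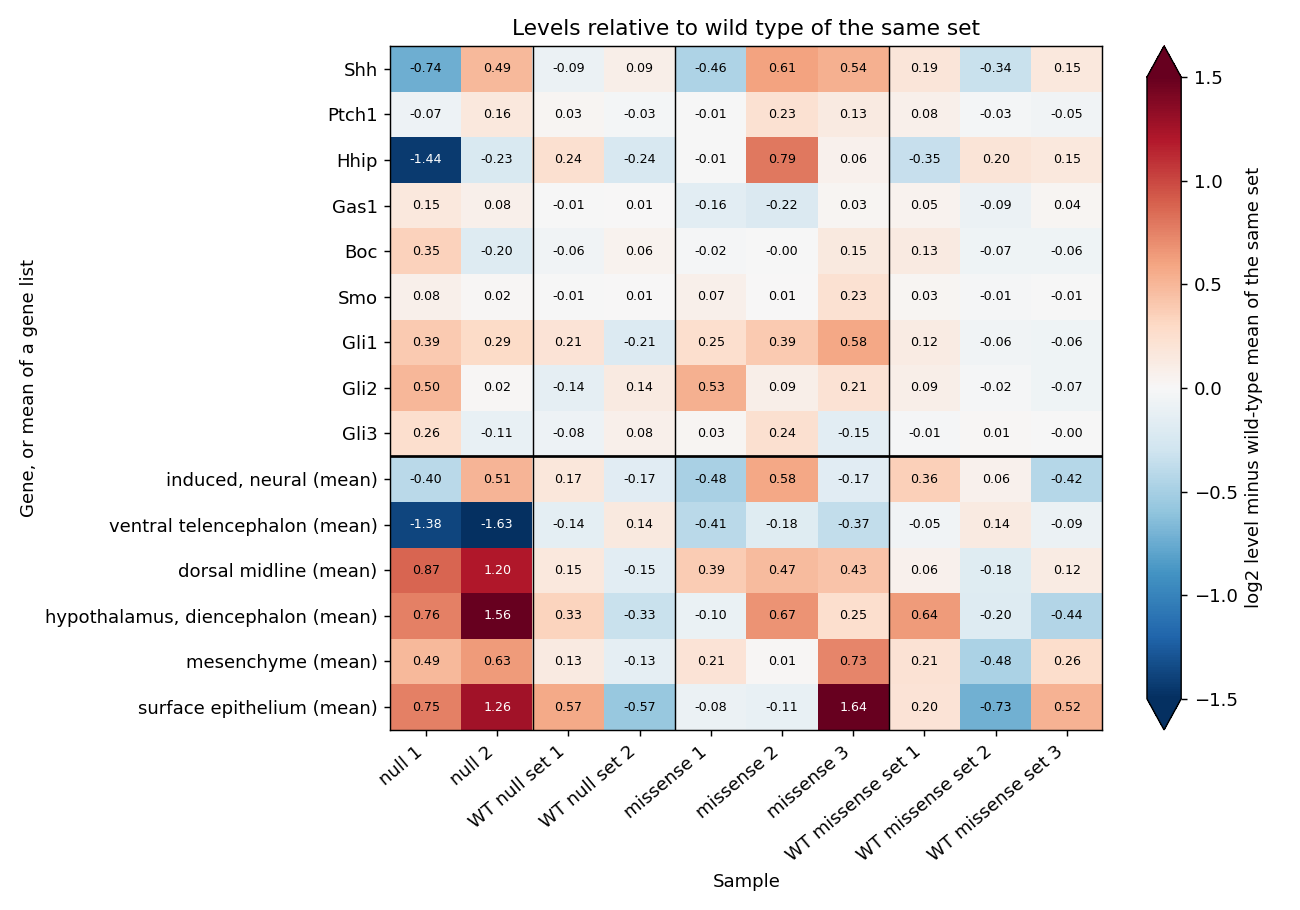
Log2 level minus the wild-type mean of the same set (colour and printed number, colours end at 1.5 in both directions) for each hedgehog gene and for the mean of 6 gene lists, in every sample. Null 1 and missense 1 are low for Shh and for the mean of neural genes induced by hedgehog, wild type 3 of the missense set is low for that mean (-0.42) but not for Shh (0.15), and null 2, missense 2 and missense 3 are high for Shh.

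Levels of hedgehog-induced genes are given beside Shh, sample by sample. The mean of 10 transcription factor genes that hedgehog induces in ventral neural tissue, relative to wild type of the same set, was -0.40 in null 1 and -0.48 in missense 1, where Shh was -0.74 and -0.46. It was 0.51 in null 2 and 0.58 in missense 2, where Shh was 0.49 and 0.61, but -0.17 in missense 3, where Shh was 0.54. One of the 10, the floor plate gene Foxa2, was at the floor of the table in 4 samples. Without it, in a variant chosen after seeing the data, the means were -0.44 in null 1 and 0.19 in null 2, and -0.53, 0.32 and -0.30 in missense 1, missense 2 and missense 3. The wild types themselves spread over 0.17 and -0.17 in the null set and 0.36, 0.06 and -0.42 in the missense set, so missense 1 lay close to the lowest wild type. In wild type 3 of the missense set, where the mean was -0.42, Shh was 0.15, and in wild type 2, where it was 0.06, Shh was -0.34. Low-level genes weigh heavily in such a mean. The summed linear level of the same 10 genes was 101 and 162 in null 1 and null 2, against 219 and 225 in their wild types. It was 115, 179 and 138 in the missense samples, against 195, 178 and 146 in their wild types. By the sum null 2 thus lay below its wild types, and by the mean of log2 values above them. The sum in turn rests mostly on Nkx2-1 and Olig2, whose mean log2 levels over all samples (6.10 and 5.36) were the highest of the 10. Nkx2-2 came next at 3.76.

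Markers of hypothalamus and diencephalon, which border the telencephalon and contain Shh sources, were higher in 12 of 15 genes in null, and their summed linear level was 518 and 685 in null 1 and null 2, against 275 to 333 in their wild types. In missense 11 of 15 were higher, at a summed level of 312 to 498 in missense against 289 to 483 in wild type. Of the defining genes, Irx2 had a log2 change of 1.5 in null (adjusted p = 0.0757) and Rax of 1.06 in missense (adjusted p = 0.902), and Rax was present at a low level in every sample.

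Markers of neighbouring tissues that make or receive hedgehog signals were on average mostly above the wild types of their own set. Head mesenchyme, a tissue that responds to hedgehog, had positive log2 changes in 15 of 15 markers in null, with a summed level of 2815 to 3739, against 1909 to 2250 in wild type. In missense 15 of 15 were also higher, with 2544 to 3483 in missense against 2014 to 3320 in wild type. Relative to wild type of the set, the mean of these markers was 0.21, 0.01 and 0.73 in the missense samples. It was 0.21, -0.48 and 0.26 in their wild types, so wild type 2 was low and missense 3 high. Missense 1 and missense 2 did not lie above wild type 1 and wild type 3. Osr1 had a log2 change of 1.09 in null and 0.82 in missense (limma adjusted p = 0.374 and 0.884). Surface epithelium, a Shh source of the face, was higher in 8 of 8 measured markers in null (summed level 41.5 to 45.8 in null against 19.9 to 24.8 in wild type) and in 7 of 8 in missense (41.4 to 105 in missense against 30.6 to 50.0 in wild type). The high value was that of missense 3, and Trp63, which marks basal epithelium, had log2 changes of 1.41 in null and 0.99 in missense (adjusted p = 0.412 and 0.884). Cldn6, an epithelial tight junction gene, was at the floor in 3 samples. Between the wild types, 7 of 8 epithelial markers were higher in the missense set than in the null set (median log2 difference 0.88). So were 11 of 15 mesenchymal markers (median 0.14) and 11 of 15 markers of hypothalamus and diencephalon (median 0.42). The null epithelial sums lay within the range of the missense-set wild types, and the mesenchymal ranges overlapped. None of the hypothalamic, mesenchymal or epithelial markers passed the test, and their part in the levels of the hedgehog genes was not tested.

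Endothelial and microglial markers also lay on average above the wild types of the null set in null. Between the wild types, all 8 endothelial and all 9 microglial genes were higher in the missense set (median log2 differences 0.27 and 0.56). All 8 endothelial genes (median 0.31) and all 9 microglial genes (median 1.22) had positive log2 changes in null. Egfl7 was at 1.29 and Csf1r at 0.95 (limma adjusted p = 0.220 and 0.0688). In missense 3 of 8 (median -0.04) and 6 of 9 (median 0.28) were positive, with Egfl7 at 0.54 and Cx3cr1 at 0.53 (adjusted p = 0.902 and 0.884). Egfl7 had the highest log2 change of the endothelial list in each mutant, so it does not stand for that list. The endothelial sum was 243 to 333 in null, against 218 to 235 in wild type. In missense it was 249 to 290, against 256 to 275 in wild type. Tyrobp, a microglial signalling gene, was at the floor in 1 wild type. The microglial sum was 123 to 125 in null, against 56.7 to 60.8 in wild type, and 97.1 to 113 in missense, against 71.3 to 89.0 in wild type.

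Other genes of ligand processing and reception had positive log2 changes in null without passing. All 10 measured of 11 listed genes were higher in null, with a median of 0.33, and 0 of 10 passed; 7 of 10 had null samples above both wild types, against the 22.9% of all genes given above. Gpc3, a glypican that competes with Ptch1 for ligand, had a log2 change of 0.62 (SE 0.26, unadjusted p = 0.0349, adjusted p = 0.551). Hhat, which attaches palmitate to the ligand, had 0.73 (adjusted p = 0.677), and Scube2 and Scube3, which release ligand from cells, had 0.95 and 0.38 (adjusted p = 0.704 and 0.629). In missense 8 of 10 were higher, with a median of 0.22 and 0 of 10 past the threshold. Gpc3 was at 0.41 and Scube1 and Scube3 at 0.26 and 0.20, while Cdon, a co-receptor related to Boc, was at -0.33 (SE 0.17, adjusted p = 0.902) with all 3 missense samples below wild type.

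Genes that act between Smo and the Gli proteins, and cilium genes, showed a median near 0. Of 28 measured genes of 29 listed, 10 were higher and 18 lower in null (median -0.02), and 13 were higher and 15 lower in missense (median -0.01), with 0 of 28 past the threshold in each. The kinase genes Csnk1e and Gsk3b, whose proteins phosphorylate pathway components, had log2 changes of -0.19 and -0.19 in null (adjusted p = 0.551 and 0.728). Kif3a, a motor subunit needed to build cilia, had -0.19 (adjusted p = 0.720). Ift88, which carries cargo along the cilium, had 0.31 in null (adjusted p = 0.738) and 0.45 in missense (SE 0.16, unadjusted p = 0.0155, adjusted p = 0.884), with mutants above wild type in both sets. In missense Iqce, a ciliary partner of Evc proteins, was at -0.37, Inpp5e, a ciliary phosphatase, at 0.30 and Gsk3b at -0.17 (adjusted p = 0.884, 0.902 and 0.902).

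The transcription factor genes that hedgehog induces in ventral neural tissue did not go one way in null. Of 10 measured, 6 had positive and 4 negative log2 changes, with a median of 0.65, or 0.31 without Foxa2. Null samples lay above both wild types for 4 of 10, against 22.9% of all genes, and below for 4 of 10, against 14.8%. Nkx2-1, which specifies the medial ganglionic eminence and hypothalamus, was 4.43 and 5.48 in null, against 6.71 and 7.02 in wild type. It fell by 1.91 on the log2 scale (SE 0.30, limma adjusted p = 0.0443), the 1 of the 10 to pass. That call was lost in 9 of the 10 fits that left out 1 sample, where the adjusted p reached 0.174. Gsx2, of the lateral ganglionic eminence, was 2.94 and 1.74 in null against 4.01 and 4.21 in wild type, a log2 change of -1.77 (adjusted p = 0.130), and both null samples lay below both wild types. Olig2, a gene of ventral progenitors, was at -0.59 (adjusted p = 0.505). Nkx2-2, of the most ventral neural tube and hypothalamus, was 4.09 and 4.95 in null against 3.95 and 3.05 in wild type, a log2 change of 1.02 (SE 0.35, unadjusted p = 0.0133, adjusted p = 0.421).

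In missense 3 of these 10 were higher and 7 lower, with a median of -0.20 and 0 past the threshold. Nkx2-1 was 5.68, 6.35 and 6.01, against 6.62, 6.45 and 6.27 in wild type, a log2 change of -0.43 (SE 0.25, adjusted p = 0.902). Olig1, a relative of Olig2, was at -0.45, Nkx2-9 at -0.83 and Nkx6-1, a ventral progenitor factor, at 0.75 (adjusted p = 0.904, 0.916 and 0.929). Groups overlapped for all 10, while of all genes 6.02% had missense samples above and 4.89% below all wild types of the set. With such shares, overlap is the usual outcome for 10 genes.

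Growth genes reported as hedgehog targets were 4 of 7 higher in null (median 0.06) and 5 of 7 higher in missense (median 0.09), with 0 of 7 past the threshold in each. Igf2, which codes for a growth factor and is also abundant in mesenchyme, had log2 changes of 0.73 in null (unadjusted p = 0.00809, adjusted p = 0.361) and 0.36 in missense (adjusted p = 0.902). The cell cycle and survival genes Mycn, Bcl2 and Cdk6 had -0.07, 0.32 and 0.24 in null (adjusted p = 0.926, 0.751 and 0.783). In missense Ccnd1 had 0.16, Ccnd2 -0.19 and Rab34 0.14 (adjusted p = 0.911, 0.902 and 0.958). The Fox genes by which facial mesenchyme responds to hedgehog were all above wild type on average, 4 of 4 measured in each mutant, and 0 of 4 passed. Foxf2, Foxc2, Foxd1 and Foxd2 had log2 changes of 0.51, 0.55, 0.17 and 0.13 in null and of 0.31, 0.75, 0.38 and 0.72 in missense, beside the mesenchymal markers above. Relative to wild type of the set, the mean of these Fox genes was -0.04 and 0.72 in null, against 0.18 and -0.18 in wild type. That mean was 0.21, 0.44 and 0.97 in missense, against 0.31, -0.66 and 0.35 in wild type.

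In the same samples, ganglionic eminence genes fell in null. Of 12 listed, 2 of them (Nkx2-1 and Gsx2) shared with the induced genes above, 8 fell, against 0.128% of all genes, and all 12 had negative log2 changes with a median of -1.37. Dlx1, a homeobox gene of GABAergic progenitors, was 6.62 and 6.81 in null against 8.04 and 8.16 in wild type, and fell by 1.38 (SE 0.10, adjusted p = 0.000369). The count was 1 without wild type 2 of the null set, 2 without null 2, 5 without wild type 1 of the null set, 4 to 5 without wild type 1 or wild type 3 of the missense set or any missense sample, and 0 when the null set was fitted by itself. In missense all 12 were also negative, with a median of -0.31, and 0 passed; Dlx1 was at -0.32 (SE 0.08, adjusted p = 0.884). At the dorsal midline, where Gli3 is required, 13 of 13 genes were higher in null (median 0.96) with 1 past the threshold, Wnt8b, which rose by 1.08 (SE 0.14, adjusted p = 0.0220), against 0.0338% of all genes, and 12 of 13 were higher in missense (median 0.34, 0 past the threshold, Wnt8b at 0.63). The Wnt8b call was lost without either null sample or either of their wild types (adjusted p up to 0.175).

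**Figure D4:**
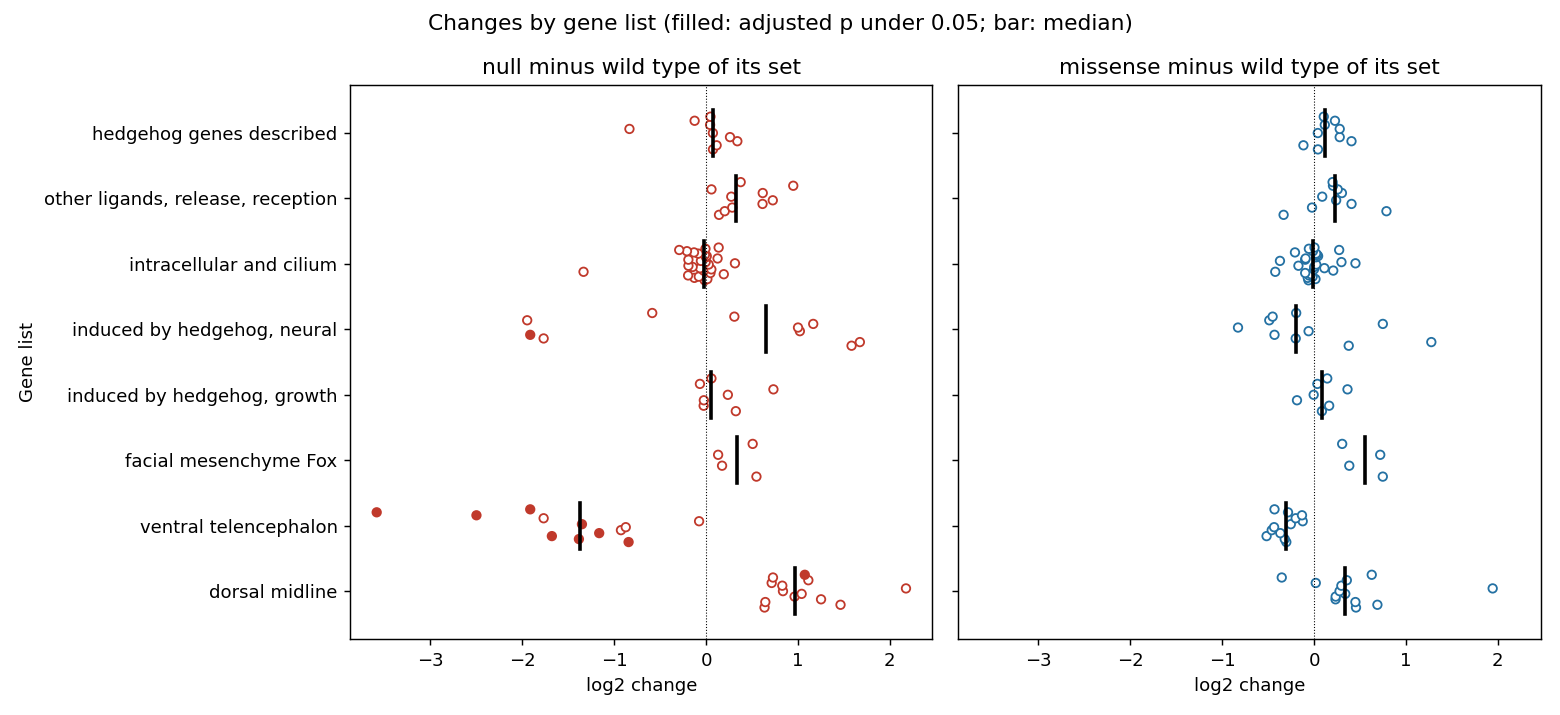
Log2 change (horizontal axis) of every measured gene in 8 lists, in null (left panel) and missense (right panel), each minus wild type of its set; filled points passed an adjusted p of 0.05 and black bars are medians. The medians of the hedgehog genes (0.07 in null and 0.12 in missense) and of the intracellular genes (-0.02 and -0.01) lie near 0, while 8 ventral telencephalon genes fell and Wnt8b rose in null.

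The genes whose values ran closest to Shh and Gli1 over the 10 samples were found by the root mean square difference of log2 values centred on the wild-type mean of each set, among 10675 genes. For Shh they were Fchsd1 (0.20), Spon1 (0.22), Inf2 (0.25), Riok3 (0.25) and Echdc2 (0.25), where the values of Shh itself have a root mean square of 0.43. Fchsd1 was -0.77 and 0.35 in null 1 and null 2, where Shh was -0.74 and 0.49. For Gli1 they were Nol12, Dusp6, Rest, Ccnd3 and Cald1 (0.10 to 0.11), where Gli1 itself has 0.30. Like Gli1, each of these 5 was above the wild-type mean of its set in all 5 mutant samples. All of these genes were picked for closeness over the same samples, so such likeness follows largely from the choice and is no separate result.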

How the data were processed

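RNA-seq of mouse telencephalon gave a table with a row per sample and gene. The values are log2 levels, which the authors filtered and normalized before they were deposited, per the file name and header; back-transformed, they sum to nearly the same total in every sample, with a floor at -3.16. The genome build was GRCm39, per the submitters' processing notes. The aligner, the counter and the annotation were not stated, and no counts were used, so depth is unknown. Each mutant was compared with wild types of its title number in limma 3.58.1 (R 4.3.3): 4 groups, 10 samples, a mean-variance trend and Benjamini-Hochberg adjustment over 14796 named genes, with calls at 0.05. The fit was run on simulated data with normal noise and no difference between title numbers, to check its code. That run does not show how well the fit suits these samples. Python 3.11.15, pandas 2.3.3 and matplotlib 3.10.9 read sequences and drew plots. The members, gene lists and tests were chosen with earlier results of these data known. Named genes were Polr1a, the 9 members, up to 4 genes of smallest unadjusted p per list and mutant (4 for pathway lists, 1 for tissue and cell type lists), and the 5 genes most like Shh and the 5 most like Gli1, among genes at or above the 25th percentile of level and not gene models, clones or pseudogenes. Emx1, Foxa2, Cldn6 and Tyrobp were named after their values were seen, and 1 gene that the rule names is not reported here. Exon lengths came from GENCODE M21. Alternatives were pooled wild types, median centring, quantile normalization, a filter on low levels, a pseudocount of 1, no variance trend, robust variances, array weights, separate fits of each title number and leave-one-out fits.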

Additional observations from a re-analysis of the deposited data

Results flagged for a closer look

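For Dlx1 the null effect minus the missense effect was -1.06 on the log2 scale (limma adjusted p = 0.0322), with -1.38 in null and -0.32 in missense; the test of the difference itself was past the threshold. For 4 other named genes every null sample lay on one side of the wild-type mean of its set, and every missense sample on the other side of its own. For these the test of the difference did not pass (adjusted p = 1 for each). Genes whose mean changes differed in sign without such a split of samples, Shh and Hhip among them, were not flagged. Rax had a difference of -1.88, with -0.81 in null and 1.06 in missense. Cdon had a difference of 0.47, with 0.14 in null and -0.33 in missense. Olig1 had a difference of 0.76, with 0.31 in null and -0.45 in missense. Nkx2-9 had a difference of 1.83, with 1.0 in null and -0.83 in missense.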

How the results depend on the processing

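No paired analysis was possible because the mutants and wild types compared share no replicate number in their titles. The count of 0 hedgehog genes called held in all 5 comparisons under each alternative run. With the wild types pooled, Shh had log2 changes of 0.26 in null and -0.030 in missense, and 0.29 for the difference, and Polr1a 0.0061 in missense; each is reversed in sign, and the cause was not tested. Where leaving out 1 sample left a single null or wild-type sample in the null set, that sample was assumed to vary like the other groups. Leaving out 1 sample gave ranges that cross 0 for Shh (-0.74 to 0.49), Ptch1 (-0.074 to 0.16), Gli3 (-0.11 to 0.26), Boc (-0.20 to 0.35), Mycn (-0.22 to 0.086), Foxd1 (-0.24 to 0.59) and Foxd2 (-0.40 to 0.67) in null. They also did for Gli3 (-0.060 to 0.14), Boc (-0.012 to 0.11) and Polr1a (-0.22 to 0.13) in missense, for Gli2 (-0.24 to 0.041) and Boc (-0.039 to 0.084) between wild types, and for the difference of Shh (-0.96 to 0.26). Gli1 in missense stayed between 0.32 and 0.49. The count of all genes called was 24 in null (0 to 59 over the alternatives), 3 in missense (2 to 10), 2 for the difference (0 to 10), 40 for the mean of both (10 to 48) and 14 between wild types (7 to 21). The ventral count of 8 in null was 1 with no variance trend and 5 with array weights. Depth is unknown, and 2 samples a group limit the precision in null.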
